A study of Mus musculus with 40 samples.

Results

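miR-132 and miR-212 are a pair of neuronal miRNAs, and all 4 mature arms of their hairpins (miR-132-3p, miR-132-5p, miR-212-3p and miR-212-5p) were examined in small RNA libraries of the hippocampal CA1 region. The arms were chosen by name, and they are 4 of the 1978 mature miRNAs counted in 40 libraries. The study compared CaMKIIδC TG mice, which overexpress the δC form of calcium/calmodulin-dependent protein kinase II and serve as a model of heart failure, with wild-type control littermates at an early and a later age. There were 5 wild-type control and 9 TG libraries from mice of 3 months, and 15 wild-type control and 11 TG libraries from mice of 6 months. All mice had the C57Bl/6J background, animals of both sexes were used, and the sex of each mouse and the promoter of the transgene are not given in the sources used here. The labels number the samples of a group and do not name the animals, so the p-values measure the spread between these samples. The numbers of TG mice per age that the paper's text gives differ from those of the labels, and a mouse stands here for a labelled library.

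A miRNA guides Argonaute proteins to mRNAs that pair with its seed, the bases near its 5′ end, and so lowers their translation and stability. The miR-132 and miR-212 hairpins lie next to each other and are cut from a shared primary transcript, which the transcription factor CREB induces in neurons upon synaptic activity or exposure to the neurotrophin BDNF. miR-132-3p is known to repress p250GAP, a brake on the GTPases that shape dendritic spines, and the pair is known for roles in dendrite growth, synaptic plasticity and hippocampal memory.

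The mature sequences are shown because the 3p arms of both hairpins share a seed and the 5p arms do not. In each line the seed (bases 2 to 8) is in capitals, and the sequences are those of RefSeq for GRCm38.p6.
mmu-miR-132-3p: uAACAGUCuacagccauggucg
mmu-miR-212-3p: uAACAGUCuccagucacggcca
mmu-miR-132-5p: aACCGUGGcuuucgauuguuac
mmu-miR-212-5p: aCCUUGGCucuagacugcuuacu

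The 3p arms shared the seed AACAGUC, which no other of the 1679 mature miRNAs with a RefSeq sequence carried. They had the same base at 17 of 22 positions, including the first 9. Counted from 1 at the 5′ end, with the base of miR-132-3p first, the differences were A10C, C14U, U17C, U20C and G22A. The 5p arms had different seeds, ACCGUGG and CCUUGGC, and each of these was found in no other matched miRNA. The 5p arms had the same base at 9 positions unshifted, and at 14 when shifted against each other. The hairpins are shown with both arms in capitals, so that the position of each arm can be seen.
Mir212: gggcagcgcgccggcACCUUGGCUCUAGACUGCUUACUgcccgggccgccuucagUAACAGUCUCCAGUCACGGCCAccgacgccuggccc
Mir132: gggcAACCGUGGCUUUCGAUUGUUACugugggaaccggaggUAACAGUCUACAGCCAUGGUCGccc

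Both hairpins lie on the plus strand of chromosome 11 in GRCm38. Mir212 spans chr11:75173388-75173478 and Mir132 spans chr11:75173682-75173747, with 203 bases between them. Both are within intron 1 (75172598 to 75173977) of 1700016P03Rik, annotated as a processed transcript of 3 exons (ENSMUSG00000085609). Each arm has only 1 precursor, so that its reads were not divided between copies.

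The libraries held between 2656368 and 36547011 counts. Their median was 29499287 for TG mice and 22455957 for wild-type control mice of 3 months, and 13894826 and 14908612 for those of 6 months. In 4 libraries, all from mice of 6 months, there were fewer than 5000000 miRNA counts. The first principal component of 361 miRNAs took 64.5% of the variance and correlated with the log2 library total (r = 0.73 over the 40 libraries). TG mice 1, 2 and 3 of 3 months had the highest scores of all libraries on the second component, which took 12.3%. On this component the highest rank of a library of 6 months was 12. TG mouse 8 and wild-type control mice 1 and 5 of 3 months lay among those of 6 months, at ranks 20, 25 and 31. The genotype field of wild-type control mice 1 and 2 of 3 months reads TG while the title reads wild-type, and the title was used.

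All 4 arms were well above the level of 3 counts in every library. Levels are CPM, the read count of a miRNA scaled to the size of its library with TMM factors. miR-132-3p ranked between 60 and 68 among 699 miRNAs in the 4 groups, miR-132-5p between 59 and 83 and miR-212-5p between 73 and 79, while miR-212-3p ranked between 221 and 242. Its lowest count in a library was 36, against at least 1449 for the other arms, so that miR-212-3p is the arm with the largest counting error. Adapter ligation depends on the sequence, and read ratios between different miRNAs are therefore not ratios of molecules. In bulk tissue, fewer neurons and less miRNA per neuron cannot be told apart.

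**Figure D1:**
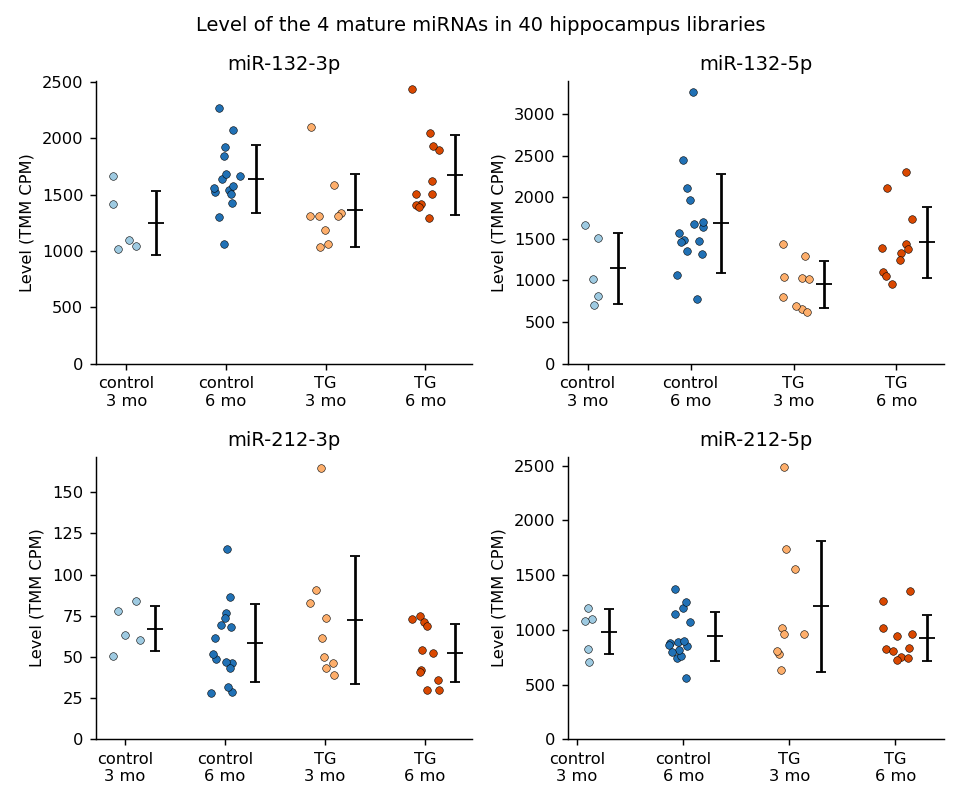
TMM-scaled CPM (y axis, from 0) of each arm in the 40 libraries by genotype and age, with 1 point per mouse and black marks for the mean ± SD of each group. The points of all groups overlap for each arm, miR-212-3p of TG mouse 9 of 3 months (165 CPM) stands above the others of its group, and 3 TG mice of 3 months lead the miR-212-5p panel.

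For miR-132-3p, the arm with the best known targets, wild-type control mice of 3 months had 1248 ± 282 CPM (SD, n = 5), with single values of 1665, 1016, 1044, 1100 and 1415 CPM. Those of 6 months had 1639 ± 300 CPM (n = 15), with a lowest, median and highest value of 1060, 1576 and 2272. TG mice had 1360 ± 322 CPM at 3 months (n = 9, with 1036, 1311 and 2102) and 1676 ± 355 CPM at 6 months (n = 11, with 1289, 1509 and 2434). Both groups of 6 months had the higher means, within 1 SD of each other, and the ranges of all groups overlapped.

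miR-132-5p, from the opposite strand of the same hairpin, was at 1145 ± 428 CPM in wild-type control mice of 3 months, with single values of 1515, 1019, 702, 818 and 1671 CPM. At 6 months these mice had 1688 ± 594 CPM (lowest 773, median 1564, highest 3263). TG mice had 954 ± 285 CPM at 3 months (621, 1016 and 1436) and 1458 ± 427 CPM at 6 months (959, 1374 and 2302). The order of the groups was thus the same as to age as for miR-132-3p, and the spread in each group was larger, with a coefficient of variation of 29.3% to 37.4% against 18.3% to 23.7%.

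miR-212-3p, which shares the seed of miR-132-3p, was at 67.3 ± 13.6 CPM in wild-type control mice of 3 months (50.4, 78.0, 63.3, 84.0 and 60.5 CPM) and at 58.5 ± 23.9 CPM in those of 6 months (lowest 27.9, median 51.8, highest 116). TG mice had 72.5 ± 39.0 CPM at 3 months (39.3, 61.7 and 165) and 52.1 ± 17.6 CPM at 6 months (29.8, 52.5 and 75.0). Here the groups of 3 months had the higher means. The differences between neighbouring groups were smaller than the SD, except that between the TG groups, which was larger than the SD at 6 months.

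miR-212-5p was at 985 ± 206 CPM in wild-type control mice of 3 months (1102, 708, 1085, 1198 and 830 CPM) and at 942 ± 221 CPM in those of 6 months (lowest 562, median 883, highest 1378). TG mice had 1216 ± 597 CPM at 3 months (637, 967 and 2486) and 928 ± 210 CPM at 6 months (724, 833 and 1352). The wide spread at 3 months came with TG mice 1, 2 and 3, which had 1736, 1553 and 2486 CPM, while the other 6 TG mice of that age had between 637 and 1015 CPM, within the range of the other groups.

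In TG mice, miR-132-5p rose between 3 and 6 months, and it was the only arm that was called altered. The call required an absolute log2FC over 0.26 besides an adjusted p under 0.05 (edgeR's quasi-likelihood test, Benjamini-Hochberg adjustment over all miRNAs tested). The log2FC of miR-132-5p was 0.62 (SE 0.19, 95% interval 0.24 to 1.01, adjusted p = 0.0253), which is 1.54-fold. All 11 TG mice of 6 months were above the mean of those of 3 months, and 4 were above their highest value. This is 1 of 4 arms, where 99 of all 629 miRNAs tested (15.7%) were called, 47 of them higher (7.47%) and 52 lower (8.27%). The call was lost without TG mouse 4 (log2FC 0.57, adjusted p = 0.0539) or TG mouse 5 of 3 months (0.56, adjusted p = 0.0547), which were among the lowest for miR-132-5p. It was also lost with scaling to the total count, without a low-count filter and with limma on RPM (adjusted p = 0.231, 0.0842 and 0.151), and it held without TG mice 1, 2 and 3 of 3 months (log2FC 0.53, adjusted p = 0.0462).

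The other arms of TG mice did not pass the test. miR-132-3p had a log2FC of 0.32 (SE 0.15, adjusted p = 0.140, unadjusted p = 0.0428), and 10 of 11 mice of 6 months were above the mean of 3 months. miR-212-3p had a log2FC of -0.46 (SE 0.25, adjusted p = 0.206) and miR-212-5p one of -0.37 (SE 0.21, adjusted p = 0.231), with 9 of 11 mice of 6 months below the mean of 3 months for both. The median log2FC of all miRNAs tested was -0.09. The values of the miR-212 arms rested on different mice. Without TG mouse 9 of 3 months the log2FC of miR-212-3p was -0.21 (adjusted p = 0.538), and without TG mouse 3 of 3 months that of miR-212-5p was -0.16 (adjusted p = 0.505). Without TG mice 1, 2 and 3 of 3 months, the log2FC of miR-212-3p was -0.72 and passed the test (adjusted p = 0.0275), whereas that of miR-212-5p turned to 0.12 (adjusted p = 0.532). With 2 factors of unwanted variation in DESeq2, which is nearest to the processing named in the study's methods and called 316 of 629 miRNAs, both miR-212 arms passed the test (log2FC -0.45 and -0.33, adjusted p = 0.0051 and 0.000239).

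In wild-type control mice, no arm was called between 3 and 6 months by edgeR, DESeq2 or limma, and 2 of 4 had an unadjusted p under 0.05 in edgeR. Of all 660 miRNAs tested, 1 was called (0.152%). The log2FC of miR-132-3p was 0.39 (SE 0.16, 95% interval 0.06 to 0.72, adjusted p = 0.301) and that of miR-132-5p 0.55 (SE 0.26, interval 0.03 to 1.08, adjusted p = 0.316). Of 15 mice of 6 months, 14 were above the 3-month mean for miR-132-3p and 13 for miR-132-5p. miR-212-3p and miR-212-5p had a log2FC of -0.21 (SE 0.26, adjusted p = 0.734) and -0.08 (SE 0.17, adjusted p = 0.866). With the same 2 factors in DESeq2, which called 219 of 660 miRNAs, both miR-132 arms passed the test (log2FC 0.40 and 0.58, adjusted p = 0.00815 and 0.00199).

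**Figure D2:**
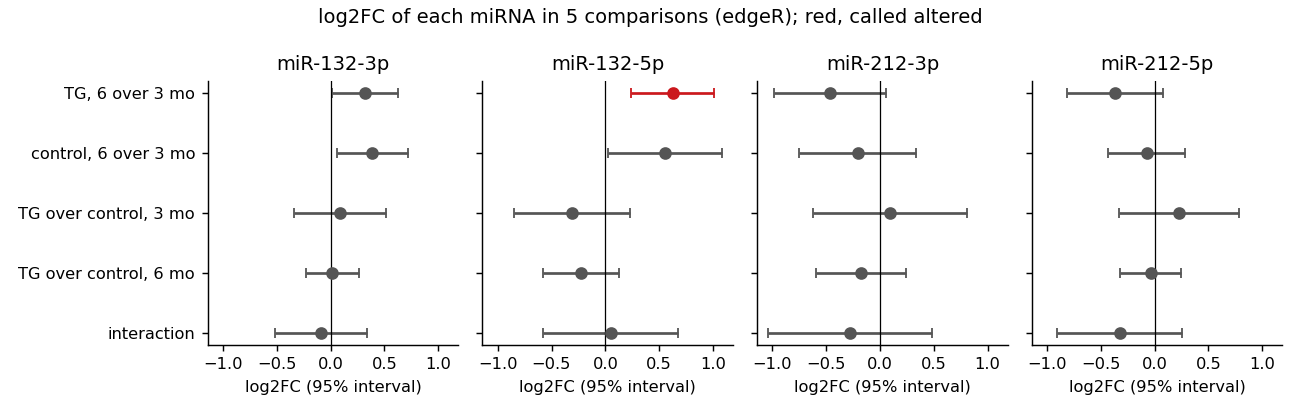
Log2FC of each arm (x axis) with its 95% interval in the comparison of ages within each genotype, in the comparison of genotypes at each age, and for the interaction of age and genotype. Only miR-132-5p in TG mice of 6 against 3 months is red, for called altered, and all intervals of the genotype comparisons and the interaction include 0.

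TG and wild-type control mice of the same age did not differ beyond the spread for any arm. At 3 months the log2FC of TG over wild-type control mice was 0.09 for miR-132-3p (95% interval -0.34 to 0.52), -0.31 for miR-132-5p (-0.84 to 0.23), 0.09 for miR-212-3p (-0.62 to 0.81) and 0.23 for miR-212-5p (-0.33 to 0.78), each with an adjusted p of 0.998. No arm and 0 of 695 miRNAs were called by edgeR (0%), with 0 arms and 7 miRNAs at an unadjusted p under 0.05. At 6 months the values were 0.02 (-0.23 to 0.26), -0.23 (-0.58 to 0.13), -0.18 (-0.60 to 0.24) and -0.04 (-0.32 to 0.25) in the same order, each with an adjusted p of 0.992, and 0 of 612 miRNAs were called (0%), with 0 arms and 3 miRNAs at an unadjusted p under 0.05. DESeq2 and limma called no arm at either age. With 2 factors of unwanted variation in DESeq2, 82 of 695 miRNAs were called at 3 months and 5 of 612 at 6 months, and none of the arms was among them. The intervals at 6 months, with more mice, were narrower, and for miR-132-3p the interval left room for a log2FC of at most 0.26 in either direction. The intervals of miR-212-3p at 3 months were the widest.

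Whether the change with age differed between the genotypes was tested as an interaction over all 40 libraries. Its log2 value (change in TG minus change in wild-type control mice) was -0.09 for miR-132-3p (95% interval -0.52 to 0.33), 0.05 for miR-132-5p (-0.58 to 0.68), -0.28 for miR-212-3p (-1.04 to 0.49) and -0.33 for miR-212-5p (-0.91 to 0.26), with adjusted p = 0.986 to 0.987. None of the 4 arms and 0 of 699 miRNAs were called by edgeR (0%), with 0 arms and 14 miRNAs at an unadjusted p under 0.05, and DESeq2 and limma called no arm. The change of miR-132-5p, called in TG mice alone, was therefore not shown to differ between the genotypes.

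The arms of each hairpin were then compared within libraries, as log2 of the 3p over the 5p level. The miR-132 arms had similar read levels, with a median log2 ratio between 0.05 and 0.58 in the 4 groups. In contrast, miR-212-5p was 12.7-fold to 19.7-fold above miR-212-3p by the group medians. In TG mice, the log2 arm ratio of miR-132 at 6 months minus that at 3 months was -0.31 (SE 0.19, adjusted p = 0.304, limma), and that of miR-212 was -0.12 (SE 0.40, adjusted p = 0.863). Neither hairpin was called, where 33 of 191 hairpins with both arms were (17.3%). In the other comparisons limma called 0 of 191 hairpins (0%), with 4 to 23 at an unadjusted p under 0.05, and the differences of the miR-132 and miR-212 arm ratios lay between -0.22 and 0.36.

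The levels of the 3p arms, which carry the same seed, were farther apart at 6 than at 3 months in both genotypes. The log2 ratio of miR-132-3p to miR-212-3p was 4.34 ± 0.60 (SD, n = 9) in TG mice of 3 months, with a lowest, median and highest value of 3.67, 4.07 and 5.08, and 5.05 ± 0.60 (n = 11; 4.14, 5.17 and 6.00) in those of 6 months. The difference was 0.71 (two-sided exact permutation test, p = 0.0178, adjusted p = 0.0493 over 4 comparisons), and the groups overlapped. In wild-type control mice the ratio was 4.21 ± 0.58 at 3 months (n = 5; 3.70, 4.04 and 5.04) and 4.89 ± 0.57 at 6 months (n = 15; 4.19, 4.65 and 6.16), a difference of 0.69 (exact permutation test, p = 0.0246, adjusted p = 0.0493). TG and wild-type control mice differed by 0.13 at 3 months (exact permutation test, p = 0.654) and by 0.16 at 6 months (permutation test, p = 0.492).

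Both differences with age were close to the threshold. Without the libraries under 5000000 miRNA counts, the difference in TG mice was 0.55 (exact permutation test, p = 0.0548) and that in wild-type control mice 0.52 (exact permutation test, p = 0.0446). Without TG mice 1, 2 and 3 of 3 months, it was 0.99 (exact permutation test, p = 0.00485). In wild-type control mice, it was 0.56, 0.65 and 0.56 without mouse 2, 3 or 4 of 3 months (exact permutation test, p = 0.0841, 0.0568 and 0.0841). The ratio also followed the first principal component, as given with the components.

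**Figure D3:**
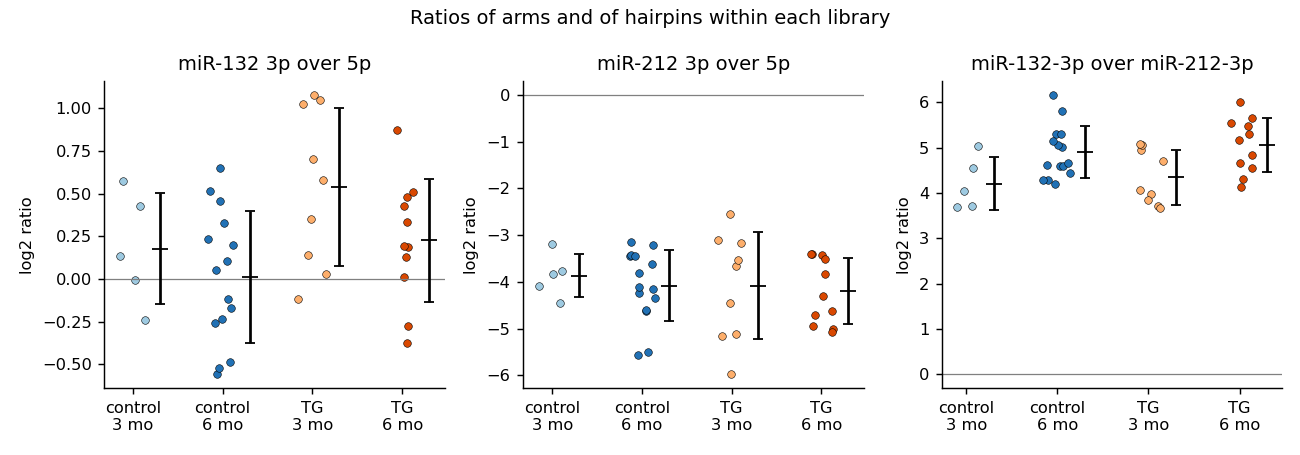
Log2 ratio (y axis) of the 3p to the 5p arm of each hairpin, and of miR-132-3p to miR-212-3p, in each of the 40 libraries by genotype and age, with the mean ± SD in black and a grey line at 0, where both levels are equal. The miR-132 arms lie around 0, the miR-212 ratio is negative in every library, and the ratio of the 3p arms has a higher mean at 6 months in both genotypes.

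The arms differed in how they varied with the general state of a library. Over the 40 libraries, after subtraction of the group means, the score on the first principal component correlated with log2 CPM at r = 0.84 for miR-212-3p and at r = -0.78 for miR-212-5p, so that the arms of this hairpin varied in opposite directions. The correlation was -0.24 for miR-132-3p and 0.33 for miR-132-5p. With the second component, it was -0.68 for miR-132-5p and 0.44 for miR-212-5p, and -0.29 and -0.21 for miR-132-3p and miR-212-3p. The log2 library total correlated with miR-212-3p at r = 0.70 and with the other arms at -0.39 to 0.14. For the log2 ratio of miR-132-3p to miR-212-3p, the correlation was -0.92 with the first component and -0.77 with the log2 total, and for the ratio of the miR-212 arms it was 0.96 with the first component. The second component had a median of 5.49 (TG) and 3.80 (wild-type control) at 3 months, and of -2.16 and -2.75 at 6 months. Among mice of 3 months, TG mouse 8 and wild-type control mice 1 and 5 had its lowest scores. They had the highest miR-132-5p levels of their groups, 1436, 1515 and 1671 CPM. Both components and the library total are measures of the same libraries as the levels. Their part in the differences with age, that of miR-132-5p included, was not tested.

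**Figure D4:**
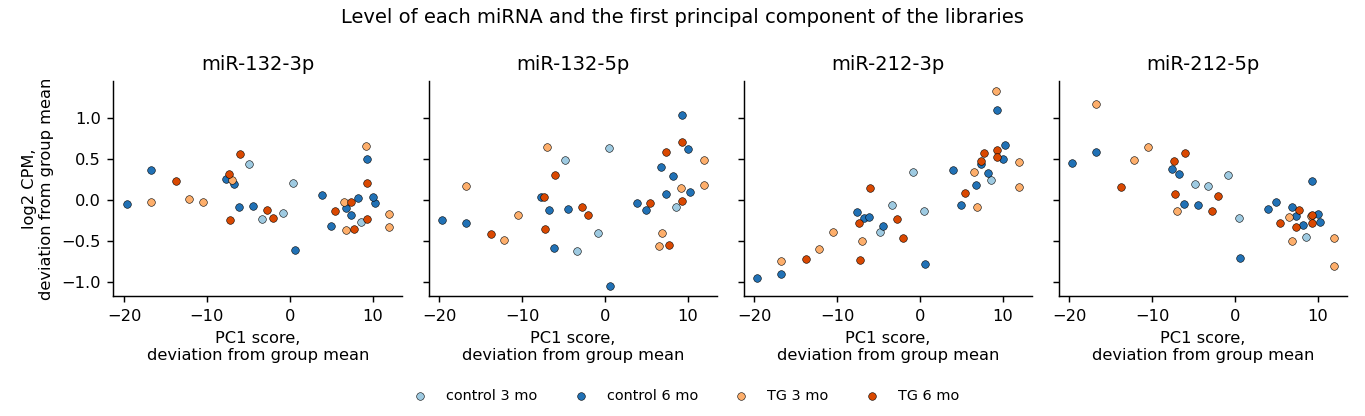
Log2 CPM of each arm (y axis) against the score on the first principal component (x axis), both as deviations from the group mean, with 1 point per library and the group in colour. miR-212-3p climbs with the score (r = 0.84), miR-212-5p declines (r = -0.78), and the miR-132 arms show little relation (r = -0.24 and 0.33).

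Variation between mice was shared in part among the arms. In the 40 libraries, again without the group means, miR-132-3p and miR-132-5p correlated at r = 0.53, miR-132-3p and miR-212-5p at 0.45, and miR-132-5p and miR-212-3p at 0.44. The arms of miR-212 correlated at -0.42, and the 3p arms that share a seed at 0.16. For miR-132-5p and miR-212-5p it was -0.04. Within groups the values differed, given here for wild-type control mice of 6 months, TG mice of 6 months and TG mice of 3 months. They were 0.61, 0.49 and 0.25 for the miR-132 arms, and -0.27, -0.46 and -0.59 for the miR-212 arms. For miR-132-3p and miR-212-5p they were 0.74, 0.70 and 0.21, and for miR-132-5p and miR-212-3p 0.78, 0.53 and 0.10. For the 3p arms they were 0.29, -0.06 and 0.41, and for the 5p arms 0.20, -0.11 and -0.15. These correlations describe points that share library depth and scaling.

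The most similar patterns among 357 other miRNAs of at least 10 CPM were different for each arm, measured by the same correlation over 40 libraries. For miR-132-5p they were miR-425-5p (r = 0.88), miR-139-5p (0.78) and miR-1983 (0.75), and these had log2FC values of 0.83, 0.90 and 0.51 in TG mice of 6 against 3 months (adjusted p = 0.0013, 0.000158 and 0.0167). miR-132-3p had lower values, 0.71 with miR-329-5p, 0.63 with miR-139-5p and 0.55 with miR-490-3p. For miR-212-3p they were miR-674-5p (0.88), miR-103-3p (0.88) and miR-93-5p (0.87), and for miR-212-5p miR-541-5p (0.88), miR-134-5p (0.85) and miR-486b-5p (0.85). None of the leading miRNAs of the miR-212 arms was called in TG mice between the ages.

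Other miRNAs linked to neuronal activity or synaptic plasticity were examined beside the pair. These 14 miRNAs include miR-134-5p, which limits the growth of dendritic spines, and miR-138-5p, which acts at synapses. None of the 14 was called in any of the 5 comparisons by edgeR, DESeq2 or limma. At an unadjusted p under 0.05 there was 1 in the comparison of ages in wild-type control mice, and 0 in the others. Among all miRNAs tested, edgeR called 99 of 629 between the ages in TG mice, 1 of 660 in wild-type control mice, and 0 in the other comparisons. Without TG mice 1, 2 and 3 of 3 months, 6 of the 14 were called in TG mice between the ages, where 315 of 662 miRNAs were. With 2 factors of unwanted variation in DESeq2, 2 of the 14 were called in TG mice (316 of 629 miRNAs) and 6 in wild-type control mice (219 of 660) between the ages. Between the genotypes 1 was called, miR-379-5p, both at 3 months (82 of 695 miRNAs) and at 6 months (5 of 612). With 1 factor in edgeR, 5 of the 14 were called in TG mice (294 of 629) and 6 in wild-type control mice (189 of 660). In TG mice of 6 against 3 months their median log2FC was -0.10, beside -0.09 for all miRNAs tested, and 6 of 14 had a positive value. Their values ranged from -0.69 for miR-137-3p (adjusted p = 0.209) to 0.34 for miR-381-3p (adjusted p = 0.549), beside 0.62 for miR-132-5p. In wild-type control mice the median was 0.00, beside -0.02 for all, and the values ranged from -0.57 for miR-188-5p (adjusted p = 0.383) to 0.92 for miR-381-3p (adjusted p = 0.305), beside 0.55 for miR-132-5p.

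Markers of other cells moved in the same comparison of TG mice in which miR-132-5p was called. Among all 629 miRNAs tested there, 47 were called higher and 52 lower. Of 3 neuronal miRNAs, miR-128-3p rose (log2FC 0.73, adjusted p = 0.021), while miR-124-3p (-0.66, adjusted p = 0.102) and miR-9-5p (-0.17, adjusted p = 0.308) did not pass the test. Both choroid plexus markers rose, miR-204-5p by 0.89 and miR-211-5p by 1.07, and their summed level was 264 to 666 CPM (without TMM factors) in TG mice of 3 months and 545 to 957 in those of 6 months. Of 3 oligodendrocyte markers, miR-219a-2-3p fell by 0.57 and miR-338-3p by 1.02, while miR-219a-5p (-1.13, adjusted p = 0.0779) did not pass the test. Their summed level was 1112 to 2843 CPM at 3 and 629 to 1450 at 6 months. The endothelial miR-126a-3p rose by 0.73 and miR-126a-5p (-0.33, adjusted p = 0.511) did not pass the test. Their summed level was 3351 to 8684 CPM at 3 and 5593 to 10703 CPM at 6 months. Of 3 erythroid markers, miR-451a rose by 0.68, miR-144-3p fell by 0.98 and miR-486a-5p (-0.02) did not pass the test. Of the cardiac and muscle markers, miR-1a-3p fell by 0.80 and miR-133a-3p (-1.14, adjusted p = 0.0958) did not pass the test. The cardiac miR-208a-3p had at most 1 count in any library. None of 3 leukocyte markers and 1 liver marker was called. The part of these cells in the value of miR-132-5p was not tested.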

How the data were processed

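Small RNA libraries of the CA1 region from 40 mice were made with the NEBNext small RNA kit and sequenced by the authors. The authors trimmed adapters with cutadapt (version 2.8 in the submitters' processing notes), mapped reads to mm10 with mirdeep2 and bowtie, and deposited raw read counts for 2128 pairs of a mature miRNA and a precursor of miRBase, and RPM values that the authors obtained by scaling each count to the total of its library. RPM recomputed from the counts differed by at most 0.005. The totals include 52 UniSp spike-in entries, which were left out of the tests.

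For each mature miRNA the precursor with the highest total was used, since 85 miRNAs had several. Counts were tested with edgeR (version 4.0.16, R 4.3.3): filterByExpr (minimum count 10, minimum total 15), TMM, robust quasi-likelihood F test on the groups compared, or on all groups for the interaction, with Benjamini-Hochberg adjustment over all miRNAs tested. Levels are CPM with TMM factors of all 40 libraries, and marker sums are CPM without TMM. Arm ratios were tested with limma (version 3.58.1) on log2 CPM (prior count 2), and the ratio of the 3p arms with an exact permutation test (scipy version 1.17.1), or 100000 resamples at 6 months. A level of 3 counts corresponded to 0.131 to 1.56 CPM, for counting error only. No libraries of a group were copies (chi-square of at least 101.8 per degree of freedom). The edgeR tests were checked on simulated counts and limma on simulated log ratios. The permutation test and the alternatives were not checked in this way.

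The study's methods name DESeq2 with RUVSeq, without the kind or number of factors. DESeq2 (version 1.42.0), factors of unwanted variation computed from residuals or spike-ins by their published definitions, other scalings and filters, summed precursors, limma on log2(RPM + 1), a joint fit, a replicate block, the genotype field of 2 mice and left-out libraries were tried as alternatives. The alternatives without libraries under 5000000 miRNA counts and without 3 TG mice were chosen after seeing the data. The miRNAs named are the 4 arms, the called members of marker lists and activity list, the marker miRNAs beside them, miR-137-3p, miR-188-5p, miR-379-5p and miR-381-3p of the activity list (the ends of its range or called under an alternative, chosen after their values were seen), and the 3 miRNAs most correlated with each arm. The arms and lists were chosen with earlier results of these data known. Of the 1978 names, 1679 (84.9%) matched a RefSeq mature sequence. Promoter sequences were not used here. The mRNA sequencing and behavioural data were not analysed here.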

Additional observations from a re-analysis of the deposited data

Results flagged for a closer look

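miR-212-3p of TG mouse 9 of 3 months, at 165 CPM, stood apart from the other 8 TG mice of that age, which had 39.3 to 90.5 CPM. The gap to the nearest mouse took 0.592 of the range, above Dixon's critical value of 0.493. For the 4 arms and 4 log2 ratios between arms, 16 such tests were made in the groups of 3 months, and chance flags about 1 in 20. The groups of 6 months were not tested in this way. This mouse also had the highest miR-132-3p value of its group (2102 CPM). Without it, the log2FC of miR-212-3p in TG mice of 6 against 3 months was -0.21.

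The UniSp spike-in entries, which the tests of the arms use in 1 alternative only, held 0.0851% to 0.252% of the counts of every library, above the limit that a count of 0 allows.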

How the results depend on the processing

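Counting error limits miR-212-3p most, and the small groups of 3 months limit every comparison of ages. The deviations of same-numbered mice were compared between ages (TG, then wild-type control) and between genotypes (3, then 6 months). They correlated at a mean of 0.25, 0.02, 0.01 and 0.31, and 7 of 9, 2 of 5, 2 of 5 and 9 of 11 pairs were over 0.1. In the same order, 0 of 9, 1 of 5, 1 of 5 and 1 of 11 mice correlated best with their own number. The replicate numbers of the titles were therefore not taken to pair the mice. With the replicate block, 0 arms were called in TG mice between the ages (miR-132-5p 0.57), where 124 of 629 miRNAs were. In wild-type control mice 1 arm was called (miR-212-3p -0.77), where 250 of 660 miRNAs were, and miR-212-5p was 0.25. At 3 months the block gave -0.044 for miR-132-3p and -0.39 for miR-212-3p, at 6 months -0.0065 for miR-132-3p, and for the interaction 0.16 for miR-212-3p. The cause of any change named here was not tested.

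In TG mice between the ages, 1 arm was called with TMM. It was 4 with 1 RUVr factor in edgeR, where 294 of 629 miRNAs were called (miR-132-3p 0.31, miR-212-3p -0.40, miR-212-5p -0.29), 3 with 2 RUVr factors in DESeq2, with 316 of 629 (miR-212-3p -0.45, miR-212-5p -0.33), 2 with 1 spike-in factor, with 216 of 629 (miR-212-5p -0.55), 0 without a low-count filter, with 70 of 1621 (miR-132-5p 0.56) and 2 without TG mice 1, 2 and 3, with 315 of 662 (miR-212-3p -0.72, miR-212-5p 0.12). With the total count only, which moved the median of all miRNAs from -0.09 to -0.29 and gave 32 higher and 76 lower calls instead of 47 and 52, miR-132-5p was lost (0.41) and miR-212-5p gained (-0.49). limma on RPM did the same (0.50 and -0.40). All calls numbered between 70 and 316 over the settings in TG mice and between 0 and 250 in wild-type control mice, between 0 and 82 for the genotypes at 3 months, and between 0 and 5 for those at 6 months and for the interaction.

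In wild-type control mice between the ages, 1 arm was called with 1 RUVr factor, with 189 of 660 miRNAs (miR-132-3p 0.39), and 2 with 2 RUVr factors in DESeq2, with 219 of 660 (miR-132-3p 0.40, miR-132-5p 0.58), and miR-212-3p was 0.025 with the spike-in factor. At 3 months, TG over wild-type control values changed sign for miR-132-3p with limma (-0.024), for miR-212-3p with 1 RUVr factor (-0.034) and limma (-0.15), and for miR-212-5p (-0.19) and the ratio of the 3p arms (-0.15) without TG mice 1, 2 and 3. At 6 months, miR-132-3p changed sign with RLE (-0.014), the total count (-0.10), DESeq2 without (-0.014) and with RUVr factors (-0.015), the spike-in factor (-0.013), a minimum of 10 CPM (-0.025) and limma (-0.084), and miR-212-5p without the shallow libraries (0.048). The interaction changed sign for miR-132-5p with the total count (-0.015), without wild-type control mice 1 and 2 of 3 months (-0.070), with these counted as TG (-0.16) and without TG mice 1, 2 and 3 (-0.039), and for miR-212-5p without the latter (0.17). The ratio of the 3p arms in TG mice was 0.55 and no longer under the threshold without the shallow libraries.

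With each mouse of the compared groups left out in turn, the value in TG mice between the ages was 0.55 to 0.72 for miR-132-5p, with 0 to 1 arms called. In wild-type control mice it was -0.17 to 0.0032 for miR-212-5p. TG over wild-type control values were -0.022 to 0.21 for miR-132-3p and -0.17 to 0.19 for miR-212-3p at 3 months, and -0.048 to 0.055 for miR-132-3p and -0.10 to 0.011 for miR-212-5p at 6 months. With only the 5 wild-type control mice of 3 months left out in turn, the ratio of the 3p arms in wild-type control mice between the ages was 0.56 to 0.90, and the interaction was -0.12 to 0.19 for miR-132-5p and -0.077 to 0.24 for the miR-212 arm ratio. The joint fit was not run for the interaction, which is joint already, and the alternatives on wild-type control mice of 3 months do not apply where these are not compared. Besides these left-out mice, the alternatives gave 335 values, of which 292 kept their direction and their side of the threshold, 25 changed sign, 13 passed the threshold and 5 lost it. Of 79 counts of arms called, 70 stayed within 1.5 times the reported count.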
